A study of Mus musculus with 18 samples.

Results

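The 6 genes described here, Jchain, Mzb1, Cd79a, Cd79b, Ms4a1 and Pou2af1, belong to B lymphocytes and to the plasma cells that B lymphocytes become. They were taken by name from a table of 26538 genes measured in 18 mouse tumours, and they were chosen by their FPKM values in these same tumours, which were low and uneven, so their values are given tumour by tumour as a description, with no test. RNA was sequenced from tumours that had not been treated themselves, in animals in which another tumour had been ablated. Cryoablation, which destroys tissue by freezing, radiofrequency ablation, which destroys it by heating, and cryo-thermal therapy, which joins freezing with heating, were each applied with or without antibody treatment against PD-1, a receptor that restrains T cells. This gave 6 groups of 3 tumours, numbered 1 to 3 in each group, and all 18 tumours came from animals that had received an ablation. Tumour line, mouse strain, age and collection day are not given in the sources used here, tumours from animals without any ablation were not analysed here, and the labels leave unsaid whether tumours of the same group had separate hosts. P-values below therefore measure only the spread between these tumours, which may be technical.

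B cells recognise antigen through a membrane immunoglobulin whose signal is carried into the cell by a pair of partner chains, CD79A and CD79B, and mature B cells also carry CD20, the product of Ms4a1. When a B cell becomes a plasma cell it turns to making and secreting antibody: the J chain, encoded by Jchain, joins the units of IgM and of dimeric IgA, MZB1 helps immunoglobulin fold and leave the endoplasmic reticulum, and Pou2af1 encodes OCA-B, a coactivator that binds the octamer factors at immunoglobulin promoters. Jchain and Mzb1 are not restricted to this lineage, since plasmacytoid dendritic cells, which make type I interferon, also transcribe them.

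Genes of the B cell receptor are a textbook case of promoters read by B lineage transcription factors. The 250 bases before transcription start are therefore shown for Cd79a, highest in a radiofrequency tumour, and Jchain, highest in cryo-thermal tumours 1 and 2. Both are RefSeq sequences of build GRCm38.p6. The Cd79a stretch is chr7:24897247-24897496 on the forward strand and the Jchain stretch is chr5:88527898-88528147 on the reverse strand. Capitals mark matches, on either strand, to the letters TCAAGGGA (related to the site of early B cell factor), CAGGTG (an E-box of the E2A kind) and AGGAAGTG (an Ets factor core). These 3 strings were picked after the sequences had been read. In the same build Cd79a spans 24897497 to 24901858 and Jchain 88519809 to 88527897 on these chromosomes, while Cd79b lies at 106311341 to 106314562 on chromosome 11, Ms4a1 at 11249679 to 11266149 on chromosome 19 and Pou2af1 at 51213690 to 51240079 on chromosome 9. The authors' own build is not given in the sources used here.
Cd79a: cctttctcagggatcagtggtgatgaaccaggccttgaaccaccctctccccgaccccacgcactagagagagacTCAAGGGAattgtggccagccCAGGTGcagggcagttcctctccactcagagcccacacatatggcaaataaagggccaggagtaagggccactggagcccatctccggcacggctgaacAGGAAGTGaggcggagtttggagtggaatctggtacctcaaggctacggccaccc
Jchain: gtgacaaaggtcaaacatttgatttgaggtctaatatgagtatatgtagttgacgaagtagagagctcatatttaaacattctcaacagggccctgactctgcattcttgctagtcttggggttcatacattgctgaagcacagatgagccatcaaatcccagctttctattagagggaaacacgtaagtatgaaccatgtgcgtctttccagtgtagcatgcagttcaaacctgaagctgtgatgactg
The Cd79a stretch held each of the 3 strings, at 175, 154 and 55 bases before the start, and they did not overlap. The Jchain stretch held none of them. Over the same window of 32851 promoters, TCAAGGGA was found in 0.813%, AGGAAGTG in 3.14% and CAGGTG in 17.2%. The octamer ATGCAAAT, present in 1.6% of all promoters, and the palindromic site of early B cell factor, present in 0.779%, were in neither stretch, which says only that these letters are not in this window.

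Levels are in FPKM, which are fragments scaled to gene length and to the mapped fragments of the library, as computed by the authors. The mean over 18 tumours was 0.833 FPKM for Jchain, 0.296 for Mzb1, 0.248 for Cd79b, 0.218 for Cd79a, 0.0854 for Pou2af1 and 0.0362 for Ms4a1, so only 1 of the 6 genes, Jchain, reached the mean of 0.5 FPKM required for the tests below. The values of each gene were whole multiples of a common step, which was taken as 1 fragment, and the summed fragments over all tumours came to 1152 for Jchain, 209 for Cd79b, 184 for Mzb1, 150 each for Cd79a and Pou2af1, and 74 for Ms4a1. Ms4a1 and Cd79a had 10 or fewer fragments in 16 of 18 tumours each. A gene listed at 0 may have a level of up to 3 fragments, which is 0.0388 FPKM for Jchain, 0.0782 for Cd79a, 0.0305 for Pou2af1 and 0.0263 for Ms4a1. This limit covers counting error only. Relative sequencing depth ran from 0.977 to 1.01.

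Jchain was concentrated in cryo-thermal tumours 1 and 2. In cryo-thermal tumours 1, 2 and 3 its level was 4.77, 4.06 and 0.637 FPKM, from 364, 316 and 49 fragments. With cryo-thermal therapy plus anti-PD-1 it was 0.85, 0.675 and 0.511 FPKM. With cryoablation plus anti-PD-1 it was 1.56, 0.302 and 0.232 FPKM, where tumour 1 stood above the other 2. All 3 tumours of cryo-thermal therapy with the antibody lay below cryo-thermal tumours 1 and 2, and cryo-thermal tumour 3 fell within their range. Radiofrequency tumours had 0.0386, 0.157 and 0.661 FPKM, and those with radiofrequency plus anti-PD-1 had 0.222, 0.0511 and 0.144 FPKM. After cryoablation alone, Jchain was at 0.0906, 0 and 0.0262 FPKM, which is 7, 0 and 2 fragments. The group means were 3.16 ± 2.21 FPKM for cryo-thermal therapy, 0.697 ± 0.747 for cryoablation plus anti-PD-1, 0.679 ± 0.169 for cryo-thermal therapy plus anti-PD-1, 0.286 ± 0.331 for radiofrequency, 0.139 ± 0.0854 for radiofrequency plus anti-PD-1 and 0.0389 ± 0.0466 for cryoablation (SD, n = 3). Without antibody, cryo-thermal and cryoablation tumours did not overlap, whereas cryo-thermal and radiofrequency tumours did, and each group overlapped its neighbours in the order of the means. The share of all genes without overlap is not given here. In the tests below 15.0% of all tested genes passed the threshold between cryo-thermal therapy and cryoablation without antibody. The 3 highest tumours held 69.3% of all Jchain signal. Without cryo-thermal tumour 1 the cryo-thermal mean was 2.35 FPKM, without tumour 2 it was 2.70, and without tumour 1 of cryoablation plus anti-PD-1 that mean fell to 0.267.

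**Figure D1:**
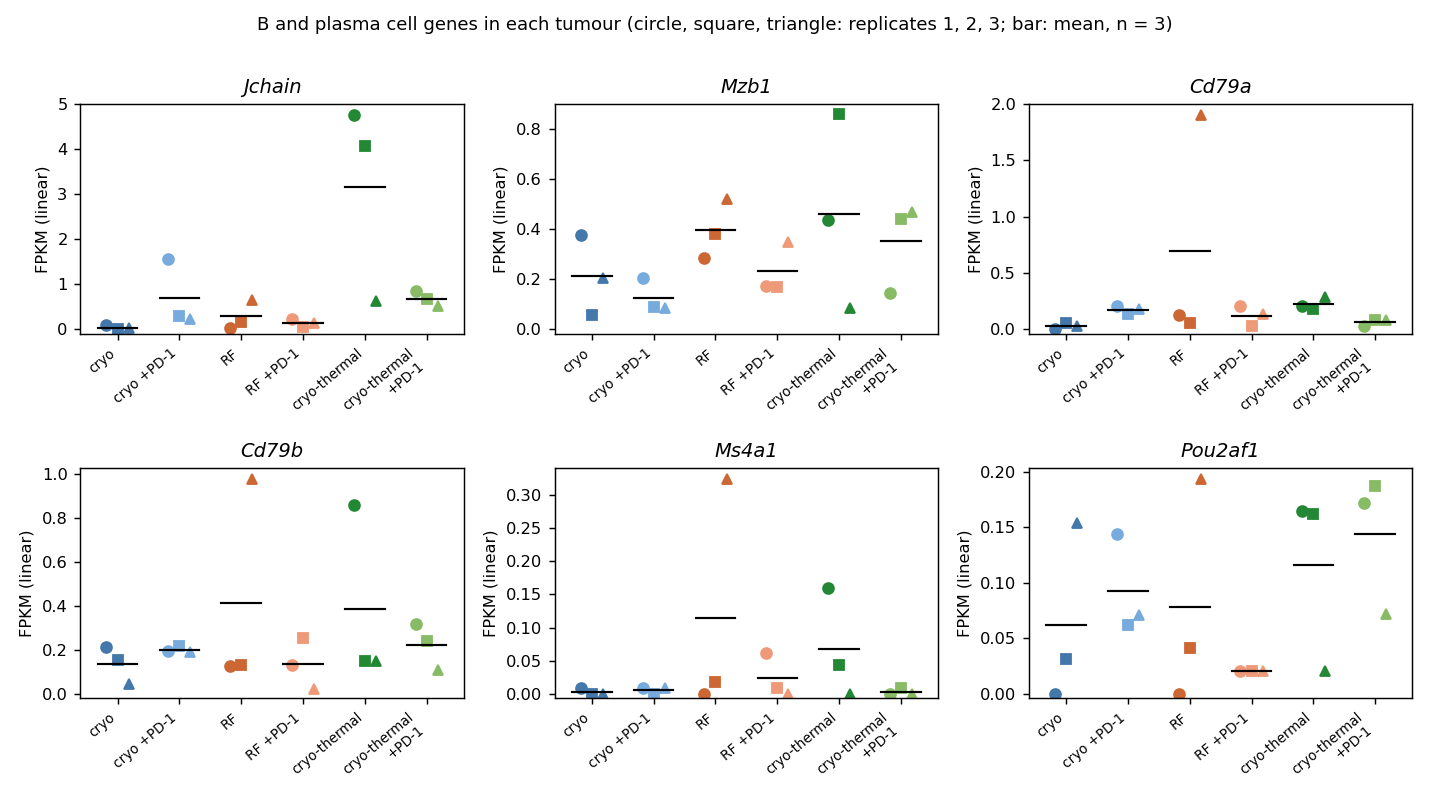
FPKM (linear axis, its range differing between panels) of the 6 genes in each tumour of the 6 groups, where cryo is cryoablation, RF is radiofrequency ablation and +PD-1 is the antibody added. Circles, squares and triangles are tumours 1, 2 and 3, and bars are means of 3. Radiofrequency tumour 3 stands at the top for Cd79a, at 1.91 FPKM, while Jchain is highest in cryo-thermal tumours 1 and 2.

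Mzb1 was spread more evenly than Jchain, and its 3 highest tumours held 34.6% of the signal. The cryo-thermal tumours measured 0.438, 0.859 and 0.0868 FPKM, so the highest tumour and 1 of the 3 lowest belonged to the same group. Tumours of cryo-thermal therapy plus anti-PD-1 measured 0.143, 0.442 and 0.467 FPKM. Radiofrequency tumours measured 0.286, 0.38 and 0.52 FPKM, and no other group had its lowest tumour as high. With radiofrequency plus anti-PD-1 the values were 0.174, 0.171 and 0.35 FPKM, with cryoablation alone 0.375, 0.0586 and 0.204, and with cryoablation plus anti-PD-1 0.204, 0.0876 and 0.0859. The order of the group means ran from 0.461 ± 0.387 FPKM in cryo-thermal tumours and 0.395 ± 0.117 in radiofrequency tumours to 0.126 ± 0.0678 in cryoablation plus anti-PD-1 (SD, n = 3), and neighbouring groups in this order overlapped. Cryoablation tumour 1, with 7 fragments of Jchain, had 13 of Mzb1.

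The genes of the B cell receptor peaked in another tumour. Cd79a measured 1.91 FPKM in radiofrequency tumour 3, from 73 fragments, against 0.13 and 0.0528 in radiofrequency tumours 1 and 2. That tumour was 6.62 times the next highest of the 18, cryo-thermal tumour 3 at 0.288 FPKM. Cryo-thermal tumours 1 and 2, where Jchain was highest, had 0.211 and 0.181 FPKM of Cd79a, which is 8 and 7 fragments. With the antibody, Cd79a was 0.0259, 0.08 and 0.0792 FPKM after cryo-thermal therapy, 0.21, 0.0257 and 0.132 after radiofrequency, and 0.211, 0.132 and 0.181 after cryoablation. Cryoablation alone left 0, 0.0529 and 0.0263 FPKM, the lowest of the 6 groups by mean. The radiofrequency mean of 0.696 ± 1.05 FPKM (SD, n = 3) was the highest by order but rested on tumour 3, and without it the mean was 0.0911, between the means of the other groups. The 3 cryo-thermal tumours, at 0.227 ± 0.055 FPKM, all lay above the 3 of cryo-thermal therapy plus anti-PD-1, at 0.0617 ± 0.031, a difference of a few fragments in each tumour. How many of all genes separate these groups in this way is not given here.

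Cd79b, the partner chain, was high in a pair of tumours: 0.978 FPKM in radiofrequency tumour 3, from 46 fragments, and 0.86 FPKM in cryo-thermal tumour 1, from 40 fragments. Radiofrequency tumours 1 and 2 had 0.126 and 0.129 FPKM, and cryo-thermal tumours 2 and 3 had 0.148 and 0.149. No tumour of the remaining 4 groups reached the level of that pair. Their values were 0.317, 0.239 and 0.107 FPKM in cryo-thermal therapy plus anti-PD-1, 0.128, 0.251 and 0.0215 in radiofrequency plus anti-PD-1, 0.212, 0.151 and 0.0429 in cryoablation, and 0.193, 0.215 and 0.19 in cryoablation plus anti-PD-1. All 6 groups overlapped. Cd79b had at least 1 fragment in each of the 18 tumours, as did Mzb1. Without tumour 3 the radiofrequency mean went from 0.411 to 0.128 FPKM, and without tumour 1 the cryo-thermal mean went from 0.385 to 0.148.

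Ms4a1, the gene of CD20, was the scarcest of the 6 and was at 0 in 8 of 18 tumours. Its highest values were in the same pair of tumours, with 0.325 FPKM in radiofrequency tumour 3, from 37 fragments, and 0.16 FPKM in cryo-thermal tumour 1, from 18 fragments. Tumour 1 of radiofrequency plus anti-PD-1 followed with 0.0618 FPKM and cryo-thermal tumour 2 with 0.0436, from 7 and 5 fragments. These 4 tumours had more than 2 fragments each, and the other 14 had 0, 1 or 2. Cryo-thermal tumour 3 was at 0, as were radiofrequency tumour 1, tumour 3 of radiofrequency plus anti-PD-1, cryoablation tumours 2 and 3, tumour 2 of cryoablation plus anti-PD-1, and tumours 1 and 3 of cryo-thermal therapy plus anti-PD-1. The 3 highest tumours held 83.8% of the Ms4a1 signal, and no order of the groups can be read from the rest.

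Pou2af1, the gene of the octamer coactivator, ranged from 0 to 0.194 FPKM, which is 0 to 19 fragments. Radiofrequency tumours gave 0, 0.0412 and 0.194 FPKM, cryo-thermal tumours 0.165, 0.162 and 0.0204, and those of cryo-thermal therapy plus anti-PD-1 0.172, 0.187 and 0.0722. The 3 tumours of radiofrequency plus anti-PD-1 were alike and low, at 0.0205, 0.0201 and 0.0206 FPKM, 2 fragments each, and theirs was the only 1 of the 6 groups with no tumour over 0.1 FPKM. Cryoablation alone gave 0, 0.031 and 0.154 FPKM, and cryoablation plus anti-PD-1 gave 0.144, 0.0619 and 0.0708. The highest tumour of the 18 was only 1.03 times the next. Of the factors that OCA-B partners, Pou2f1 (Oct-1) passed the filter and was called in 0 of 9 comparisons, with an unadjusted p under 0.05 in 2 of them. Those 2 set cryo-thermal therapy against cryoablation without antibody, and both cryo-thermal groups against the other ablations. There 3910 and 4197 of 12587 tested genes had an unadjusted p under 0.05. Pou2f2 (Oct-2) was highest in cryo-thermal tumour 1, at 0.432 FPKM.

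Read by tumour, the 6 genes gave 3 different profiles. Radiofrequency tumour 3 was the highest of 18 for 4 of the 6 genes, Ms4a1, Cd79a, Cd79b and Pou2af1, while its Jchain level ranked 6. Cryo-thermal tumour 1 had the most Jchain and stood next to radiofrequency tumour 3 for Ms4a1 and Cd79b, but not for Cd79a. Cryo-thermal tumour 2 had the most Mzb1 and the Jchain level next to the highest, with 5, 7 and 7 fragments of Ms4a1, Cd79a and Cd79b. At the other end, cryoablation tumour 2 had 0 fragments of Jchain and Ms4a1, 2 of Cd79a and 2 of Mzb1.

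Other B cell genes, which were not used to choose the 6, were looked up in the same tumours. They were listed with earlier results of these data known, so they are no independent check of the 6. Of a list of 19 genes of B cell identity, 7 (36.8%) were highest in radiofrequency tumour 3 and 6 (31.6%) in cryo-thermal tumour 1, where 7.22% and 8.19% of all genes of the table were highest. All 7 that peaked in radiofrequency tumour 3 were among the 12 genes with a mean under 0.5 FPKM, and none of the 7 better measured genes did. Those highest in cryo-thermal tumour 1 were Pax5, the transcription factor that keeps B cell identity, Cd22, an inhibitory coreceptor, Cd37, Cd72, Blnk and Btk. Of 11 signalling genes that B cells share with myeloid cells, 9 (81.8%) were also highest in cryo-thermal tumour 1, and 0 in radiofrequency tumour 3. The 31.6% is therefore not read as particular to B cells. Pax5 measured 0.193 FPKM in cryo-thermal tumour 1 and 0.0764 in radiofrequency tumour 3, and Cd22 measured 0.737 and 0.66. Blnk, an adaptor of the receptor, was nearly level, at 3.78 and 3.73 FPKM. The 7 genes of radiofrequency tumour 3, named here after their values were seen, were Fcer2a (CD23), Cr2 (CD21), Fcmr (a receptor for IgM), Cxcr5 (the receptor for CXCL13), Fcrla, Blk (a kinase of the B cell receptor) and Bank1 (an adaptor). Fcmr measured 0.473 FPKM in radiofrequency tumour 3, 4.41 times the next highest, and Fcer2a measured 0.149, 2.37 times the next highest. Cr2 was 4.71 times the next highest and was at 0 in 10 tumours. The excess was smaller for Blk, Bank1, Fcrla and Cxcr5, at 1.24 to 1.35 times the next tumour. Over the whole list the mean log2(FPKM + 1) was 1.06 in radiofrequency tumour 3, 0.884 in tumour 1 of cryoablation plus anti-PD-1 and 0.88 in cryo-thermal tumour 1. The summed level of the list was highest in tumour 1 of cryo-thermal therapy plus anti-PD-1, at 57 FPKM, against 54.4 in radiofrequency tumour 3 and 39.5 in cryo-thermal tumour 1. Most of the first 2 sums was Ly6d, at 39.5 and 31.7 FPKM, a gene that skin also transcribes. Ly6d enters the means of log2 values as well. It measured 15.8 FPKM in tumour 1 of cryoablation plus anti-PD-1 but only 0.727 in cryo-thermal tumour 1. The order of those means therefore rests in part on Ly6d and is not read as one of B cell genes. Since these are bulk tumours, fewer cells of a type and less RNA per cell cannot be told apart. Derl3, a gene of protein export from the endoplasmic reticulum that is high in plasma cells, also peaked in radiofrequency tumour 3, at 0.623 FPKM or 3.17 times the next tumour. Tnfrsf17, which encodes the plasma cell receptor BCMA, was at 0.0192 FPKM in that tumour and at most 0.0955 in any of the 18.

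**Figure D2:**
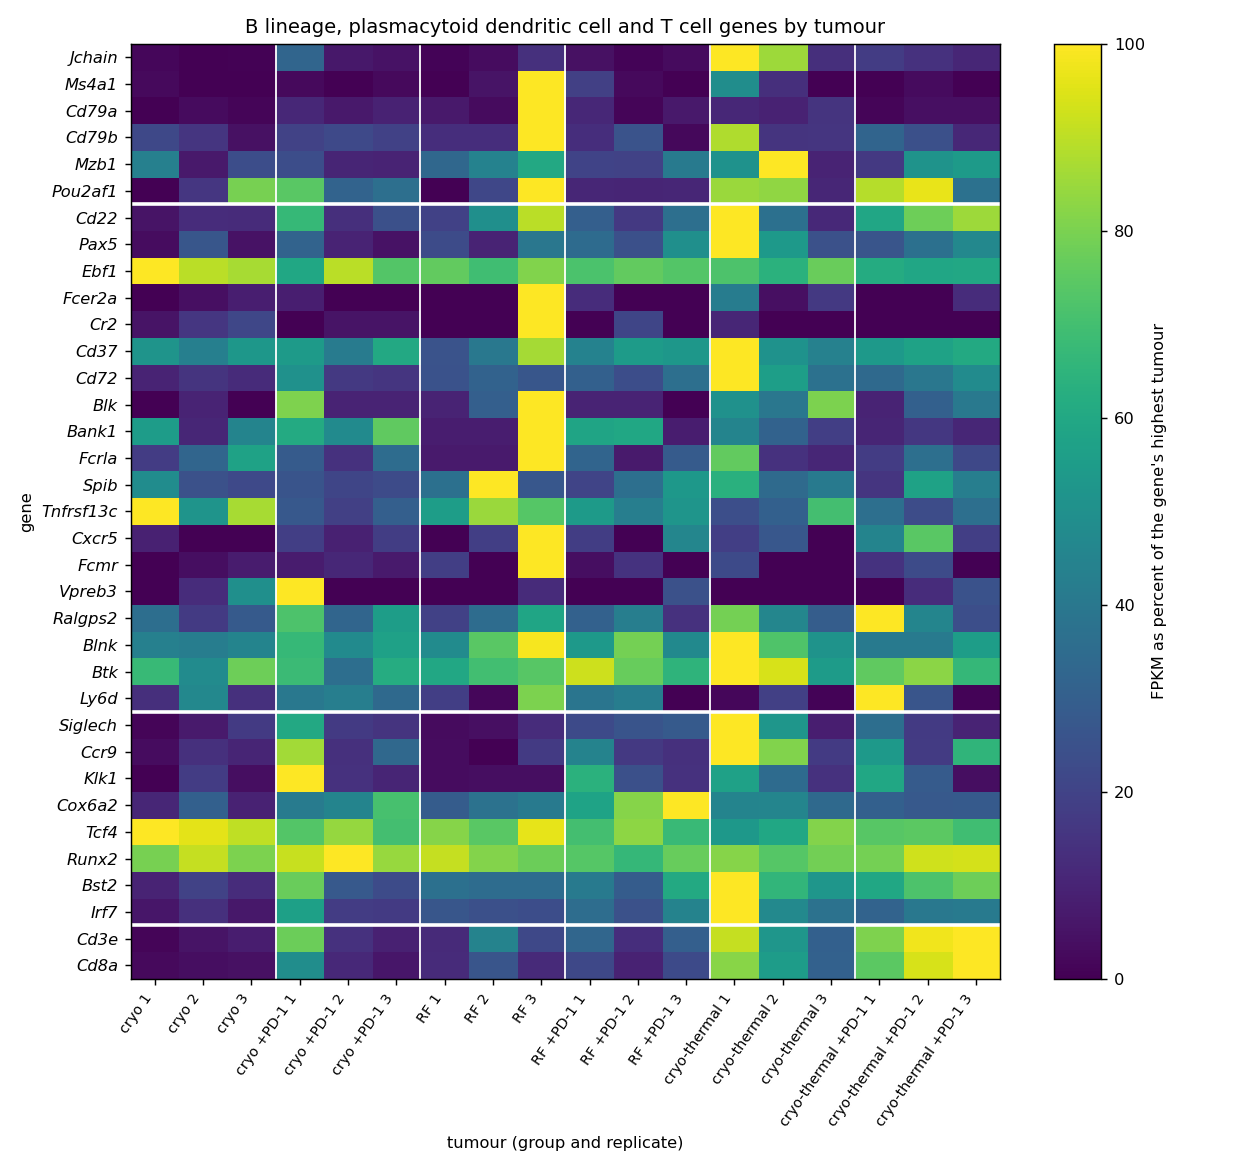
Each row is a gene and each column a tumour (cryo, cryoablation; RF, radiofrequency; +PD-1, antibody added), and the colour gives FPKM as a percentage of the highest tumour for that gene. From the top, the blocks hold the 6 genes, the 19 genes of B cell identity, the 8 plasmacytoid dendritic cell genes and 2 T cell genes. In the block of B cell identity 7 genes peak in radiofrequency tumour 3, 6 in cryo-thermal tumour 1 and the other 6 elsewhere.

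Radiofrequency tumour 3 stood apart in red cell RNA as well. The summed FPKM of 5 erythroid genes was 992 in that tumour, the highest of the 18, against 36.6 and 386 in the other 2 radiofrequency tumours. The 3 cryoablation tumours followed, with sums of 557 to 772 FPKM. Their levels were 0 to 0.0529 FPKM for Cd79a, 0.0429 to 0.212 for Cd79b and 0 to 0.00876 for Ms4a1, while cryoablation tumour 1 was the highest of the 18 for Tnfrsf13c, at 2.07 FPKM, and for Ebf1, an early B cell factor that stromal cells also express, at 1.46. The part of red cell RNA in the B cell values of radiofrequency tumour 3 was not tested. T cell genes did not peak there: Cd3e measured 0.983 FPKM in radiofrequency tumour 3, between 0.547 and 2.04 in the other 2 tumours of its group.

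The tumours with the most Jchain were also high in some, but not all, of 8 genes typical of plasmacytoid dendritic cells. Of the 8, 4 were highest in cryo-thermal tumour 1: Siglech, Ccr9, Bst2 and Irf7, the last 2 being interferon-induced genes of many cell types. Siglech, a surface receptor of these cells, measured 0.49 FPKM in cryo-thermal tumour 1, 0.297 in tumour 1 of cryoablation plus anti-PD-1 and 0.257 in cryo-thermal tumour 2, the same 3 tumours that led for Jchain. In radiofrequency tumour 3 it was 0.0614 FPKM. Ccr9, a homing receptor, was highest in the same 3 tumours, at 0.175, 0.15 and 0.142 FPKM. Klk1 was highest in tumour 1 of cryoablation plus anti-PD-1, at 0.773 FPKM, and measured 0.442 and 0.271 in cryo-thermal tumours 1 and 2. These 3 genes were singled out after their values were seen. The remaining 3 genes of the list were highest in other tumours. Tcf4, the transcription factor that these cells require, was lowest of the 18 in cryo-thermal tumour 1, at 1.80 FPKM, and was called lower after cryo-thermal therapy than after cryoablation, with a log2 fold change of -0.42 ± 0.10 (SE, limma adjusted p = 0.0172). That call passed in 9 of 13 alternative fits and was lost without cryoablation tumour 1, without cryo-thermal tumour 1 and without cryo-thermal tumour 2, with adjusted p of 0.0718, 0.0964 and 0.0709. Of the 8 genes 5 entered that comparison, where 15.0% of all tested genes were called. Irf7, Bst2 and Cox6a2 were called higher in it, with log2 fold changes of 2.5, 2.35 and 0.95. Their limma adjusted p was 0.00451, 0.00451 and 0.0167, and they passed in 13, 13 and 8 of 13 alternative fits. Cox6a2 was highest in tumour 3 of radiofrequency plus anti-PD-1, at 8.10 FPKM, against 3.65 in cryo-thermal tumour 1, and Runx2 ran only from 9.56 to 14.4 FPKM. Ccr9 was at 0 in radiofrequency tumour 2 and Klk1 in cryoablation tumour 1. The summed level of the list, most of it Bst2, ran from 201 to 381 FPKM in cryo-thermal tumours, 220.3 to 284 with the antibody added, 140 to 148 in radiofrequency tumours, 123 to 235 with the antibody added, 49.4 to 87.3 in cryoablation tumours and 101 to 290.3 with the antibody added. Over the 18 tumours the Pearson correlation with Jchain on the log2(FPKM + 1) scale was 0.847 for Siglech, 0.842 for Ccr9 and 0.558 for Klk1, 0.73, 0.775 and 0.495 without cryo-thermal tumour 1, and 0.857, 0.853 and 0.577 without radiofrequency tumour 3. For Cd79a and Ms4a1 it was 0.178 and 0.377 over all tumours, 0.205 and 0.175 without cryo-thermal tumour 1, and 0.489 and 0.696 without radiofrequency tumour 3. By rank (Spearman), the values were 0.614 for Siglech, 0.798 for Ccr9, 0.538 for Klk1, 0.569 for Cd79a and 0.478 for Ms4a1, so by rank Cd79a lay between Klk1 and Siglech. These are descriptions over tumours that share groups and, for the low genes, rest on few fragments.

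The match between Jchain and these genes was not complete. The summed level of Siglech, Ccr9 and Klk1 was 1.22 FPKM in tumour 1 of cryoablation plus anti-PD-1 and 1.11 in cryo-thermal tumour 1, but Jchain was 1.56 and 4.77 FPKM there. Tumour 1 of radiofrequency plus anti-PD-1 had a sum of 0.682 FPKM with only 0.222 of Jchain, while cryo-thermal tumour 2, with a sum of 0.67, had 4.06. T cell genes moved with Jchain too: Cd3e was 4.17 and 2.40 FPKM in cryo-thermal tumours 1 and 2 and 3.54 in tumour 1 of cryoablation plus anti-PD-1, with a correlation of 0.644 to Jchain over the 18 tumours. The summed level of 10 T cell genes was 13.7 to 42.7 FPKM in cryo-thermal tumours, 2.61 to 3.59 in cryoablation tumours and 6.05 to 25.2 with the antibody added to cryoablation. In cryo-thermal therapy plus anti-PD-1, however, Cd3e ran from 3.68 to 4.57 FPKM while Jchain stayed at 0.511 to 0.85. Tumour 1 of cryoablation plus anti-PD-1 was also rich in hair follicle RNA, with 21.6 FPKM summed over Krt25, Krt27 and Krt71 against 0 and 2.85 in cryo-thermal tumours 1 and 2. The part of these cell types in the Jchain values was not tested.

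**Figure D3:**
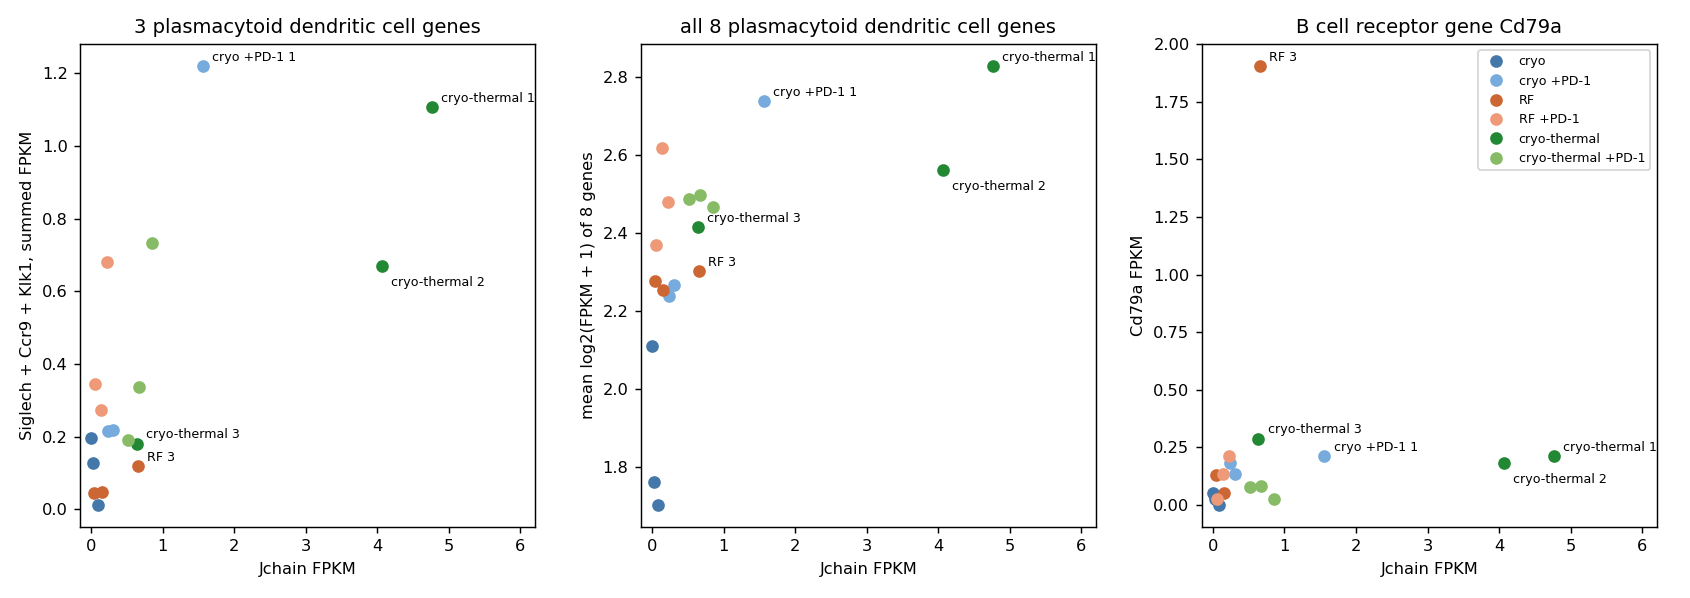
Each point is a tumour, coloured by group (cryo, cryoablation; RF, radiofrequency; +PD-1, antibody added), with Jchain FPKM on the x axis and linear axes throughout. The left panel plots the summed FPKM of Siglech, Ccr9 and Klk1, the middle panel the mean log2(FPKM + 1) of all 8 plasmacytoid dendritic cell genes and the right panel Cd79a. Cryo-thermal tumour 1 is high in the left and middle panels, at 1.11 FPKM and 2.83, and radiofrequency tumour 3, at 1.91 FPKM of Cd79a, stands alone in the right panel with 0.661 FPKM of Jchain.

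Most relations among the 6 genes depended on single tumours. The correlation of Ms4a1 was 0.883 with Cd79a and 0.876 with Cd79b over the 18 tumours, but without radiofrequency tumour 3 the value with Cd79a was 0.395 while that with Cd79b was 0.774. Cd79a and Cd79b correlated at 0.688 with that tumour and at 0.162 without it. Jchain correlated at 0.625 with Pou2af1 and at 0.546 with Mzb1, which became 0.604 and 0.559 without cryo-thermal tumour 1. Without cryo-thermal tumour 2, the highest for Mzb1, the value between Jchain and Mzb1 fell to 0.3. Without radiofrequency tumour 3, Jchain correlated at 0.696 with Ms4a1, 0.632 with Cd79b and 0.489 with Cd79a, next to 0.661 with Pou2af1 and 0.561 with Mzb1, so in the other 17 tumours the values with the B cell receptor genes overlapped those with Pou2af1 and Mzb1. Without cryo-thermal tumour 1, in turn, Jchain correlated at 0.175 with Ms4a1, 0.167 with Cd79b and 0.205 with Cd79a. The relation between Cd79a and Cd79b rested on radiofrequency tumour 3. That between Jchain and Pou2af1 rested neither on radiofrequency tumour 3 nor on cryo-thermal tumour 1.

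Of the well measured genes, those whose pattern over the 18 tumours was most like the mean of the 6 were Ms4a7 (Pearson r 0.915), C3ar1 (0.894), Tm6sf1 (0.87), Pik3r5 (0.862), Tmem86a (0.861), Abca1 (0.831), Slc37a2 (0.829), Ifi207 (0.829), Pid1 (0.827) and Scarf1 (0.822), each on the log2(FPKM + 1) scale. For Jchain alone they were Ptafr (0.896), Phf11a (0.891) and Nr1h3 (0.869), with values of 0.83, 0.814 and 0.819 without cryo-thermal tumour 1. For Cd79a they were Hyal1 (0.835), Dhrs3 (0.806) and Gpr137b (0.803), which fell to 0.402, 0.327 and 0.365 without radiofrequency tumour 3. For Cd79b they were Ms4a14 (0.923), C3ar1 (0.897) and Rab8b (0.87), and for Ms4a1 Rab8b (0.854), Ms4a14 (0.848) and Itm2b (0.844). Mzb1 was closest to Idua (0.776), Tnip2 (0.77) and Carmn (0.763), and Pou2af1 to Tnfrsf26 (0.811), Slc37a2 (0.809) and Gstt3 (0.778). By Spearman correlation with the mean of the 6, Ms4a7, Ifi207, Pik3r5 and Scarf1 ranked 1, 6, 8 and 10, and the others of that list from 36 to 236, C3ar1 last. For Jchain, Ptafr, Phf11a and Nr1h3 ranked 1, 65 and 7. For Ms4a1, Rab8b, Ms4a14 and Itm2b ranked 33, 198 and 582. Ms4a14 and Ms4a7 belong to the same gene family as Ms4a1, and which cells transcribed these genes was not tested.

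The genes around these 6 were compared between groups with limma on log2(FPKM + 1), over all 12587 genes with a mean of at least 0.5 FPKM. Of the 19 genes of B cell identity 7 entered the test, and of 16 genes of plasma cell differentiation and secretion 12 did. Between cryo-thermal therapy and cryoablation, both without antibody, 5 of these 19 tested genes were called, all higher after cryo-thermal therapy, where 15.0% of all tested genes were called and 8.01% were called higher. They were Cd72, an inhibitory coreceptor of B cells that other leucocytes also express, and Creld2, Fkbp11, Hsp90b1 and Pim2, of which the first 3 encode proteins of the endoplasmic reticulum made in many secretory cells. Cd72 measured 21.9, 12.3 and 8.13 FPKM in the cryo-thermal tumours and 2.19, 3.31 and 2.71 in the cryoablation tumours, a log2 fold change of 1.92 ± 0.34 (SE, limma adjusted p = 0.00545). The median log2 fold change was 0.24 over the 7 identity genes and 0.24 over the 12 plasma cell genes, against -0.01 over all genes. Cd72 passed in 13 of 13 alternative fits, while Creld2, Fkbp11, Hsp90b1 and Pim2 each lost the call without cryoablation tumour 1 and without cryo-thermal tumour 2, among others, their adjusted p reaching 0.0577, 0.132, 0.0802 and 0.185.

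Taking cryo-thermal therapy with and without antibody against the other 4 groups, 4 of the 19 genes were called, all higher, where 17.8% of all tested genes were called and 10.5% were called higher: Cd72, with a log2 fold change of 0.99 ± 0.21 (SE, limma adjusted p = 0.00665), Creld2, Pim2 and Ell2, an elongation factor of plasma cells. Cd72 and Creld2 passed in all 24 alternative fits, Pim2 in 20 and Ell2 in 7. Xbp1 and Prdm1, the transcription factors that direct plasma cell differentiation, had log2 differences of -0.02 ± 0.05 and 0.03 ± 0.10 (SE) and did not pass. Xbp1 is active in secretory cells generally and was at 40.1 to 59.3 FPKM in these tumours. Nothing particular to the B lineage is read from these counts.

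Adding the antibody gave up to 3 calls among these genes, which are set beside the share called over all tested genes. Over the 3 ablations together 3 of 19 were called, where 10.0% of all tested genes were: Creld2 and Ell2 higher, and Tnfrsf13c, the gene of the survival receptor BAFFR, lower. They passed in 7, 12 and 20 of 24 alternative fits, and none of them passed without the 3 tumours rich in hair follicle RNA. Tnfrsf13c was also the only 1 of the 19 called between cryoablation with and without antibody, where 4.31% of all tested genes were called. It measured 0.569, 0.393 and 0.625 FPKM with the antibody and 2.07, 1.07 and 1.8 without, a log2 fold change of -0.78 (limma adjusted p = 0.0305). That call was lost in 7 of 13 alternative fits, among them those without each single tumour of cryoablation plus anti-PD-1 and without the 3 tumours rich in hair follicle RNA, with an adjusted p of up to 0.399. None of the 19 was called by limma for the antibody with radiofrequency, where 0.0477% of all tested genes were called and 1 of the 19 had an unadjusted p under 0.05, or with cryo-thermal therapy, where 0.373% were called and 3 of the 19 had an unadjusted p under 0.05. None was called between cryo-thermal therapy and radiofrequency without antibody, where 0.00794% of all genes were called, nor with antibody against cryoablation (4.06%) or against radiofrequency (1.31%), with 3, 2 and 3 of the 19 at an unadjusted p under 0.05. For these comparisons of cryo-thermal therapy, 1712, 2605 and 2162 of all 12587 tested genes had an unadjusted p under 0.05. For the antibody with radiofrequency and with cryo-thermal therapy, 1457 and 1631 had.

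Some signals that attract B cells or keep them alive reached the mean of 0.5 FPKM, which only Jchain reached among the 6 genes described here. Of a list of 13 such genes 6 entered the test. Of the 6, 3 were called higher in the mean of the cryo-thermal groups than in the mean of the other 4 groups. In that comparison 10.5% of all tested genes were called higher. The 3 were Ltb, which encodes the lymphotoxin chain needed for lymphoid tissue, with a log2 fold change of 1.10 ± 0.20, Cd40, the receptor for T cell help, with 0.77 ± 0.14, and Tnfsf13b, which encodes the survival factor BAFF, with 0.64 ± 0.13 (SE, limma adjusted p = 0.00273, 0.00267 and 0.0045). Each of the 3 passed in 24 of 24 alternative fits of that comparison. Against the radiofrequency groups by themselves none of the 6 was called, without antibody (smallest limma adjusted p = 0.262) or with it (0.0958). There 0.00794% and 1.31% of all tested genes were called. Tnfsf13b measured 2.42, 1.63 and 1.37 FPKM in cryo-thermal tumours and 2.56, 3.07 and 2.30 with the antibody added, against 0.534, 0.833 and 0.54 after cryoablation. It was 1.28, 1.60 and 0.896 after radiofrequency, 1.55, 0.821 and 1.38 with the antibody added, and 2.01, 0.919 and 0.654 after cryoablation plus anti-PD-1. These last groups each overlapped the cryo-thermal tumours without antibody. Radiofrequency tumour 3, where Cd79a was highest, had 0.896 FPKM of Tnfsf13b, the lowest of its group. The B cell chemoattractant gene Cxcl13 did not pass, at 1.64, 1.57 and 0.669 FPKM in cryo-thermal tumours and 0.243, 0.225 and 0.646 in radiofrequency tumours, and Ccl21a did not either, at 0.119 to 13.7 FPKM over the 18 tumours. T cell genes were called higher with these signals, 9 of 9 tested in the comparison with the mean of the other 4 groups. The part of T cells in these signals was not tested.

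**Figure D4:**
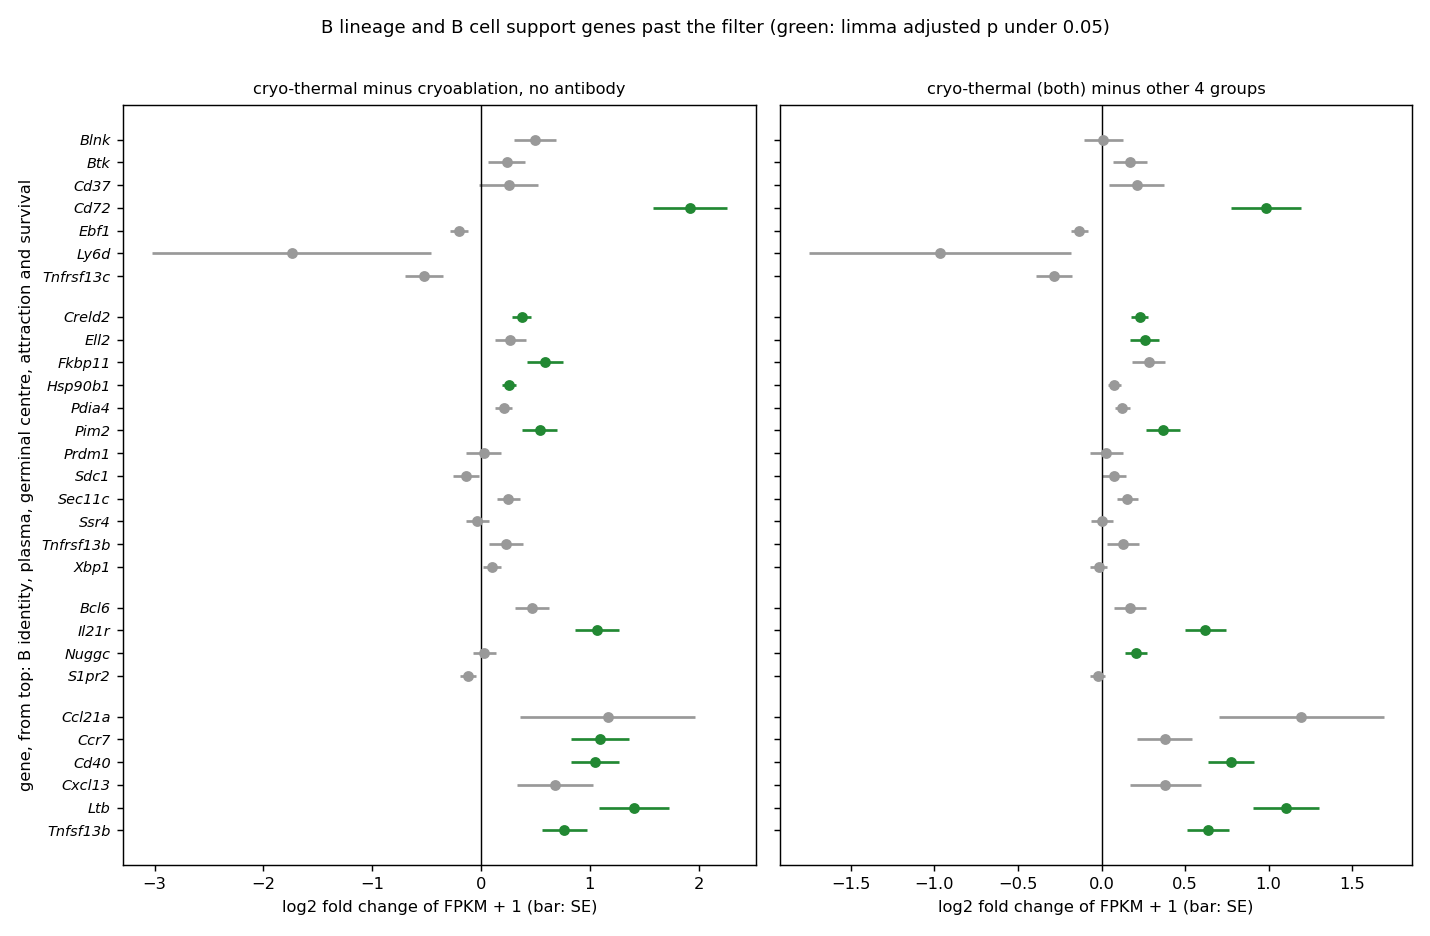
Log2 fold change of FPKM + 1 with its SE (bars) for genes past the filter in 4 lists, given from the top as B cell identity, plasma cell, germinal centre, and attraction and survival. Left is cryo-thermal therapy minus cryoablation without antibody, right is cryo-thermal therapy with and without antibody minus the other 4 groups, and green marks a limma adjusted p under 0.05. Cd72, at 1.92 on the left, is the only called gene of B cell identity.

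In germinal centres B cells divide and compete for antigen. Of 8 germinal centre genes 4 entered the test. Of the 4, Il21r and Nuggc were called higher in the mean of the cryo-thermal groups than in the mean of the other 4 groups, beside 10.5% of all tested genes. Their log2 fold changes were 0.62 ± 0.12 and 0.20 ± 0.07 (SE, limma adjusted p = 0.00463 and 0.0423). Il21r, a cytokine receptor that T and NK cells also carry, passed in 24 of 24 alternative fits, and Nuggc in 7 of 23, its adjusted p reaching 0.132. Signal carriers downstream of the B cell receptor, which myeloid cells share, were called higher for 5 of 10 tested genes in that comparison, against the same 10.5%, among them Ptpn6, a phosphatase, and Plcg2, a phospholipase, with log2 fold changes of 0.56 ± 0.12 and 0.31 ± 0.07 (SE, limma adjusted p = 0.00812 and 0.0122). Against the radiofrequency groups by themselves, without or with antibody, no tested gene of either list was called. There 0.00794% and 1.31% of all tested genes were called. Immunoglobulin genes, which would separate antibody-secreting cells from other sources of Jchain most directly, were not analysed here.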

How the data were processed

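RNA was sequenced from 18 tumours in 6 groups of 3, taken from the treatment labels. TRIzol and silica columns gave the RNA, per the labels' protocols, and the library kit was VAHTS Universal V6. The deposited table holds FPKM values computed by the authors, whose processing notes name HTSeq 0.11.2. Aligner, build, annotation, strand and filters are not given in the sources used here, so overlapping genes may share reads.

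FPKM values carry no fragment counts. Of 5921 low genes checked, 94.06% had only whole multiples of a common step, within 0.05 fragments, and the members' fragments come from that step. FPKM sums ran from 408042 to 442383 per tumour, and 8 housekeeping genes were never at 0.

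Members and gene lists were chosen with earlier results of these data known. The members therefore received no test. Related genes were tested with limma 3.58.1 in R 4.3.3 on log2(FPKM + 1), a scale that understates changes of low genes, for the 12587 genes with a mean of at least 0.5 FPKM. The fit had 1 mean per group over all 18 tumours, a variance trend, 2-sided tests and Benjamini-Hochberg adjustment with a threshold of 0.05. The 9 comparisons share tumours, and the script was tested on simulated data.

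Lists covered B cell identity, plasma cells, germinal centres, B cell attraction and survival, octamer factors, receptor signalling, plasmacytoid dendritic cells, T cells, hair and skin, and erythroid cells. Of 121 list entries 109 were found by symbol. Some genes of these cell types are not reported here. The 12 not found are immunoglobulin constant regions, so the planned description of immunoglobulin genes was not made. Named were all members, up to 4 genes of each list with the highest mean and up to 4 past the threshold per comparison, the 10 genes most like the mean of the members and the 3 most like each. Siglech, Ccr9, Klk1, Derl3, Tnfrsf17, Pou2f2, Btk, Ebf1 and the low B cell genes were named after their values were seen.

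Promoters came from the RefSeq table of build GRCm38.p6, where 3 of 6 members had an entry. Alternatives were another pseudocount (0.1), no filter, a mean of at least 1 FPKM, array weights, only the groups compared, the replicate number as a block, and each tumour left out. The fit without the 3 tumours rich in hair keratins was added after seeing the data.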

Additional observations from a re-analysis of the deposited data

How the results depend on the processing

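The counts of called genes moved by over 1.5 times under many alternatives, while no fold change of a list gene that was called in the main fit changed sign. Fold changes that were not called, such as those of Xbp1 and Prdm1, were not checked for sign. Of 54 group differences of the members' mean log2 values, which carry no test, 3 had another sign with a pseudocount of 0.1: Jchain for the mean antibody effect (-0.21 to 0.03), and Mzb1 (0.04 to -0.08) and Cd79b (-0.01 to 0.03) for cryo-thermal therapy minus radiofrequency. Counts are over all genes, then over the 19 B lineage genes. Array weights gave 5461 and 12 for cryo-thermal therapy against cryoablation, 1373 and 3 against radiofrequency, 4156 and 6 against cryoablation with antibody, 2154 and 2 against radiofrequency with antibody, 1974 and 3 for the antibody with cryoablation, 5332 and 7 for the antibody with cryo-thermal therapy, 2626 genes for the mean antibody effect, and 6173 and 11 for cryo-thermal therapy against the other 4 groups. Without a filter the B lineage counts were 3, 0, 0 and 2 for cryo-thermal therapy against cryoablation, the antibody with cryoablation, the mean antibody effect and cryo-thermal therapy against the other 4 groups, and counts over all genes were 180 and 74 for the antibody groups of cryo-thermal therapy against cryoablation and radiofrequency, 140 and 10 for the antibody with cryoablation and radiofrequency, and 752 for its mean effect. A pseudocount of 0.1 gave 88 genes between the antibody groups of cryo-thermal therapy and radiofrequency. Fits on only the groups compared gave 1050 and 3 for cryo-thermal therapy against cryoablation, 0 against radiofrequency, 0 and 78 for the same pairs with antibody, and 1 each for the antibody with radiofrequency and cryo-thermal therapy. Without the 3 tumours rich in hair keratins, counts were 0 for cryo-thermal therapy against radiofrequency, 330 against cryoablation with antibody, 0 (and 0 B lineage genes) for the antibody with cryoablation, 0 with radiofrequency, 5 with cryo-thermal therapy, and 206 (0) for the mean antibody effect. Leaving out a tumour at a time gave 458 to 2677 genes (1 to 9 of the B lineage) for cryo-thermal therapy against cryoablation, 0 to 280 (0 to 2) against radiofrequency, 2 to 1051 (0 to 2) against cryoablation with antibody, 0 to 120 against radiofrequency with antibody, 0 to 452 (0 to 1) for the antibody with cryoablation, 0 to 3 with radiofrequency, 2 to 80 with cryo-thermal therapy, 674 to 1685 (0 to 3) for its mean effect, and 1098 to 2999 (2 to 7) for cryo-thermal therapy against the other 4 groups. The cause of these moves was not tested. Cd72, Ltb, Cd40, Tnfsf13b and Il21r kept their calls for cryo-thermal therapy against the other 4 groups in all 24 alternatives. The tumours share only replicate numbers: 13 of 45 same-numbered pairs and 29 of 90 others had deviations correlated above 0.1. With the replicate number as a block, cryo-thermal therapy against radiofrequency gave 0 genes, the antibody with radiofrequency 0, cryo-thermal therapy against radiofrequency with antibody 69, and cryo-thermal therapy against cryoablation 1738, of which 6 were B lineage genes. Low levels limit the members most: a few fragments separate most tumours in 5 of the 6 genes.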
